A study of Trichoderma reesei with 24 samples.

Results

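The genes described here are the 139 genes of *Trichoderma reesei* whose transcripts peaked at 8 h on cellulose in the WT strain, of 8755 genes in the deposited table (1.59%). They were chosen by their measured WT levels. Among 5710 genes with a WT mean of at least 10 TPM (reads normalized for gene length and library depth) at 8 h, each was ranked by a score, log2((8 h mean + 1)/(highest of the other 3 means + 1)), and the first 150 were taken. The rule also names 16 identifiers for removal, of which 11 were among the 150. The WT libraries therefore fixed the 8 h peak in WT, and WT values are given below as a description with no test. The libraries of the Δ*nsd3* strain had no part in the choice, and the tests below use them alone.

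RNA was sequenced from mycelia of the TU6 strain (called WT, a *pyr4*-negative recipient) and of Δ*nsd3*, in which the *pyr4* marker replaces *nsd3* in TU6. Each strain was grown on glycerol for 24 h, on glucose for 24 h, or on cellulose for 8 h or 48 h after pregrowth on glycerol, with 3 libraries per group and 24 libraries in all. *nsd3* encodes a zinc finger transcription factor related to NsdC of *Aspergilli*. Transformants came from one recipient and carry the marker as well as the deletion, so the effects of deletion, marker, and clone cannot be told apart. *nsd3* itself was at 32.2 to 278 TPM in WT libraries and at 0 to 2.42 TPM in Δ*nsd3* libraries. Depth estimated from the steps between low TPM values was 18.2 to 45.8 M reads in 23 libraries and 238 M in Δ*nsd3* glycerol replicate 3. Log2 profiles of libraries of one group correlated at 0.984 to 0.996, except on cellulose at 48 h in WT, where the lowest correlation was 0.942. The study describes the cultures and the sequencing as made in triplicate, without saying how far the replicates were grown apart, and the p-values measure the spread between these libraries.

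As background, *T. reesei* lives on plant cell wall polymers. Small sugars released from cellulose, such as cellobiose and sophorose, enter through transporters and lead to transcription of cellulase and hemicellulase genes under the activator Xyr1, while glucose represses many of the same genes. Growth on glycerol neither induces nor strongly represses them, so a shift from glycerol to cellulose shows an early induction.

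In WT the 8 h mean of the members ranged from 10.6 to 15294 TPM, with a median of 82.2 TPM. Their scores ranged from 1.04 to 8.79, with a median of 1.34. Every WT 8 h library stood above every other WT library for 137 of the 139 members, and the exceptions were TRIREDRAFT_72137 and TRIREDRAFT_104437. The second-highest WT condition was 48 h on cellulose for 105 members, glycerol for 31, and glucose for 3. At the limit of the list, TRIREDRAFT_122422 and TRIREDRAFT_103446 were inside with scores of 1.05 and 1.04, and TRIREDRAFT_3823 (1.04), *pdi1* (1.03), and TRIREDRAFT_123699 (1.03) were just outside. Only 15 members have a symbol in the gene table used here, so most are named by identifier and without a role.

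Most members were also high at 8 h in Δ*nsd3*, although fewer stood clear of 48 h. Against glucose, 120 of the 139 members (86.3%) were upregulated at 8 h, where 25.4% of all 7933 genes tested were upregulated (limma, log2 fold change of 1 or more in size with an adjusted p under 0.05). Against glycerol, 85 members (61.2%) were upregulated, beside 8.87% of all genes. Against 48 h on cellulose, 49 members (35.3%) were upregulated, beside 4.29% of all genes. These comparisons use the same 8 h libraries and are set side by side only.

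Few members were downregulated at 8 h in Δ*nsd3*. TRIREDRAFT_82026 was the single one against glycerol, where 2.05% of all genes were downregulated. TRIREDRAFT_72137 was the single one against glucose, where 7.99% of all genes were, and its call was lost in a fit of all 24 libraries (adjusted p 0.237) and without glucose replicate 2. Against 48 h there were 3, TRIREDRAFT_104181, TRIREDRAFT_81383, and TRIREDRAFT_37525, beside 4.71% of all genes.

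The sizes differed between the comparisons. The median log2 fold change of the members was 2.96 against glucose, 1.37 against glycerol, and 0.64 against 48 h. Over all genes tested the medians were 0.34, 0.03, and −0.00. Members with a positive log2 fold change numbered 134 against glucose (65.4% of all genes were positive), 133 against glycerol (53.1%), and 107 against 48 h (49.4%). Scaling by the median of ratios moved the median of all genes against glucose from 0.34 to 0.01, and 113 members were then upregulated.

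**Figure D1:**
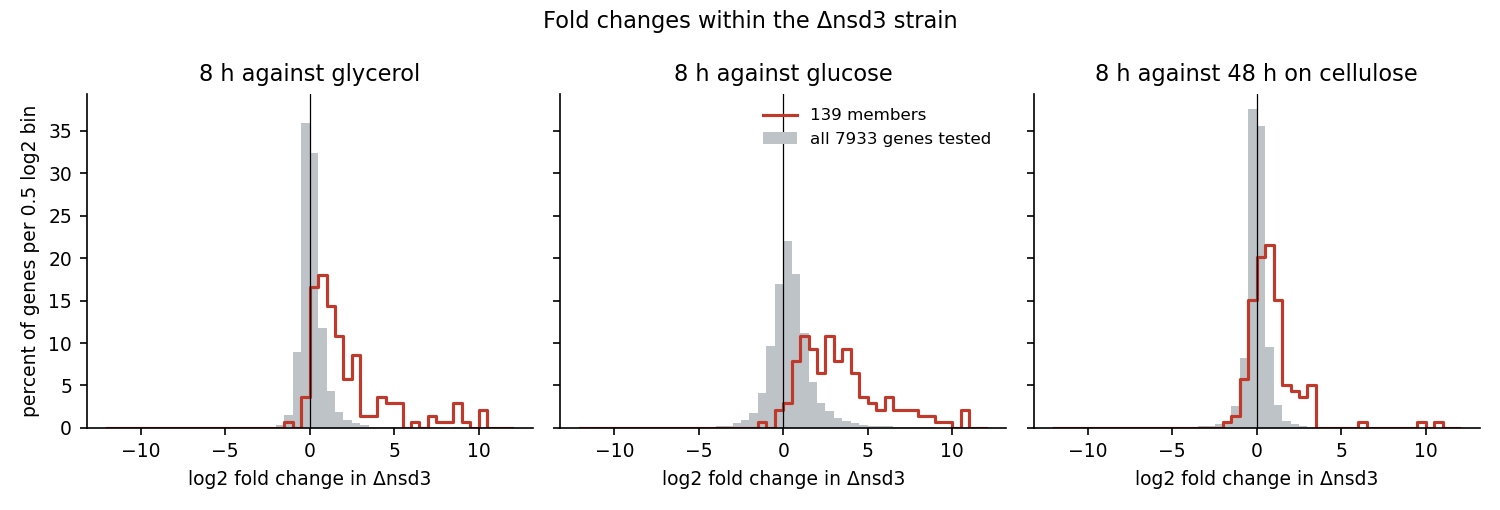
Log2 fold changes of 8 h on cellulose against glycerol, glucose, and 48 h within the Δ*nsd3* strain (x axis), as the percent of genes in bins of 0.5 (y axis). Grey bars show all 7933 genes tested and the red line the 139 members, whose medians were 1.37, 2.96, and 0.64.

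Each of the 3 Δ*nsd3* libraries of 8 h stood above all 9 other Δ*nsd3* libraries for 74 members (53.2%), beside 6.71% of all genes tested. By means, 8 h was the highest Δ*nsd3* condition for 101 members, 48 h for 32, glucose for 4, and glycerol for 2. The 32 include TRIREDRAFT_82619, which was at most 0.105 TPM in any Δ*nsd3* library. The Δ*nsd3* score, by the formula used for WT, was at least 1 for 45 members and was above the WT score for 31. The median Δ*nsd3* score was 0.55. Shares over all genes were not computed for the peak by means or for the scores.

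**Figure D2:**
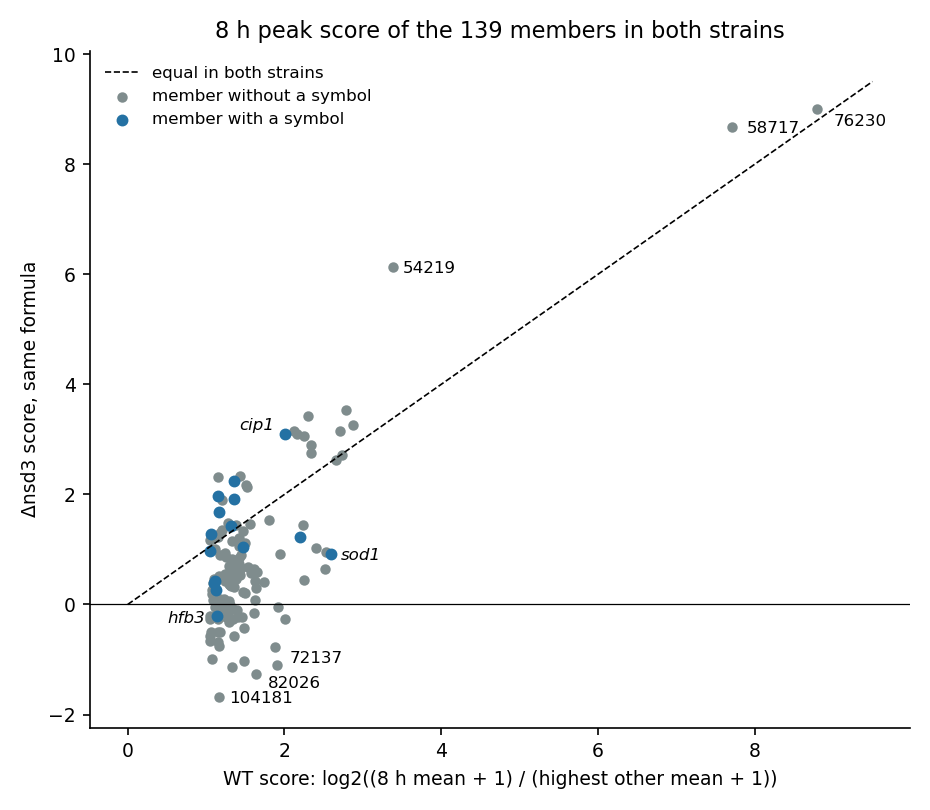
Peak score of each of the 139 members in WT (x axis, the score that chose them) and in Δ*nsd3* (y axis), both on the log2 scale. Points above the dashed line, 31 members, had a higher score in Δ*nsd3*, and points under 0 were higher in another condition than at 8 h.

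TRIREDRAFT_76230 ranked first, and its transcripts were nearly confined to 8 h among the conditions sampled. Its WT libraries gave 917, 621, and 414 TPM at 8 h, and 0.0390 to 0.764 TPM in the 9 other libraries. In Δ*nsd3* it was at 3819, 1743, and 1203 TPM at 8 h, at 5.53, 3.30, and 1.42 TPM on glycerol, and at 0.0830 to 0.424 TPM on glucose and at 48 h. No library of another condition came near the 8 h libraries in either strain. The log2 fold changes in Δ*nsd3* were 8.94 ± 0.34 (SE) against glycerol, 10.73 ± 0.34 against glucose, and 10.58 ± 0.34 against 48 h, with adjusted p of 2.62e-13, 7.22e-15, and 9.13e-14 (limma).

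The gene next to it in gene order, TRIREDRAFT_58717, ranked second and had the same pattern. It was at 394, 277, and 211 TPM at 8 h in WT and at 1773, 972, and 738 TPM in Δ*nsd3*. On glycerol it was at 0.0590, 0.159, and 0.642 TPM in WT and at 3.09, 1.58, and 0.852 TPM in Δ*nsd3*, so at 8 h and on glycerol every Δ*nsd3* library stood above every WT library. Its levels at 48 h were 0.0420, 0.979, and 0.215 TPM in WT and 0.705, 0.205, and 0.241 TPM in Δ*nsd3*. Within Δ*nsd3*, the log2 fold change at 8 h was 8.65 ± 0.29 (SE) against glycerol and 9.63 ± 0.29 against 48 h, with adjusted p of 4.48e-14 and 5.04e-14 (limma).

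TRIREDRAFT_54219, which the study names as an acetyl xylan esterase, an enzyme that removes acetyl groups from xylan, followed in the ranking. It was listed at 0 TPM in all WT libraries of glycerol and glucose, and stood at 208, 167, and 103 TPM at 8 h and at 14.6, 12.02, and 16.6 TPM at 48 h. In Δ*nsd3* it was at 771, 331, and 344 TPM at 8 h and at 3.01, 9.81, and 4.80 TPM at 48 h. Higher at 8 h and lower at 48 h than in WT in every library, it had a Δ*nsd3* score of 6.14 against a WT score of 3.38. The 8 h level in Δ*nsd3* was above 48 h by a log2 fold change of 6.14 ± 0.31 (SE), with an adjusted p of 3.66e-11 (limma).

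TRIREDRAFT_121127 was among the most abundant of the sharply peaking members. It gave 1153, 1220.1, and 819 TPM at 8 h in WT and 3783, 1718, and 1841 TPM in Δ*nsd3*. At 48 h it was at 141, 135, and 184 TPM in WT and at 217, 204, and 209.7 TPM in Δ*nsd3*, and on glycerol and glucose it was at most 1.61 TPM in any library. Both cellulose groups were thus above all libraries of glycerol and glucose, and its log2 fold change at 8 h against 48 h in Δ*nsd3* was 3.44 ± 0.25 (SE), adjusted p 7.50e-09 (limma).

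Other high-ranking members had the same shape at lower levels. TRIREDRAFT_69944 was at 32.6, 18.5, and 11.0 TPM at 8 h in WT and at 31.0, 28.8, and 32.2 TPM in Δ*nsd3*, with at most 2.73 TPM in any library of another condition. TRIREDRAFT_112392 was at 21.0, 11.3, and 12.5 TPM at 8 h in WT and at 34.4, 14.1, and 23.0 TPM in Δ*nsd3*, where it was listed at 0 in all glycerol and glucose libraries. TRIREDRAFT_56840 was higher, at 543, 433, and 345 TPM at 8 h in WT and at 393, 315, and 341 TPM in Δ*nsd3*. Against 48 h in Δ*nsd3*, their log2 fold changes were 3.27 ± 0.16 (SE), 2.55 ± 0.23, and 3.16 ± 0.18, with adjusted p of 2.21e-11, 1.60e-07, and 2.04e-10 (limma). TRIREDRAFT_50894 was also upregulated against 48 h (log2 fold change 3.19 ± 0.30, adjusted p 2.52e-07, limma), with 992, 304, and 329 TPM at 8 h in Δ*nsd3*, where replicate 1 stood apart.

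**Figure D3:**
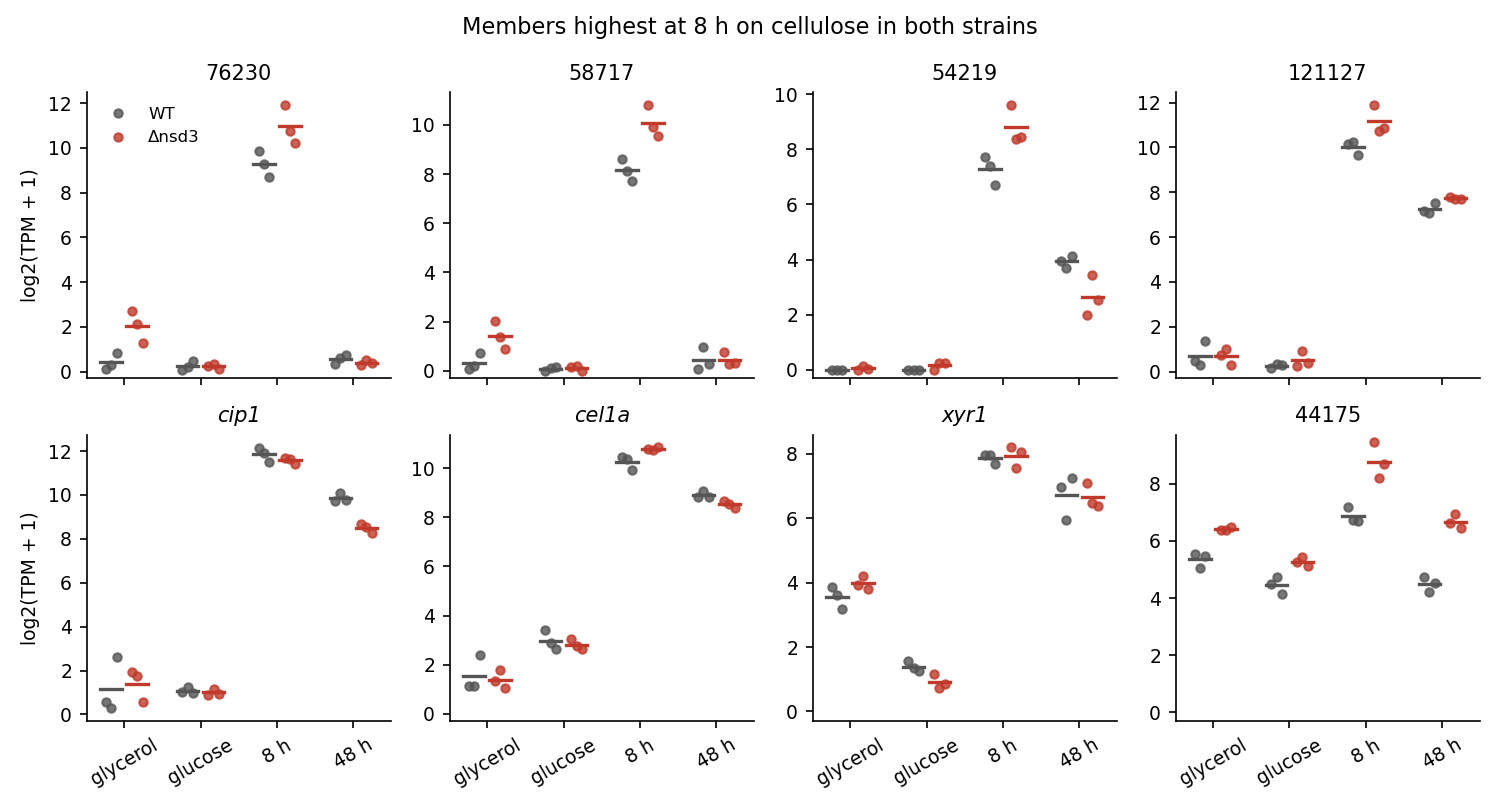
Level of 8 members, log2(TPM + 1) on the y axis, in each library of WT (grey) and Δ*nsd3* (red) in the 4 conditions (8 h and 48 h are on cellulose); bars are means of 3 libraries on that scale, and numbers are TRIREDRAFT identifiers. In each panel the 8 h libraries of a strain lie above all its other libraries.

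Among members with a role in cell wall breakdown, *cip1* was the most abundant. It encodes a secreted protein with a cellulose-binding module. It was at 4538, 3855, and 2873 TPM at 8 h in WT and at 3285, 3176, and 2762 TPM in Δ*nsd3*, while its 48 h levels were 849.9, 1079, and 873 TPM in WT and 404, 369, and 306 TPM in Δ*nsd3*. The libraries of the strains overlapped at 8 h and did not overlap at 48 h. In Δ*nsd3* its log2 fold change was 10.17 ± 0.25 (SE) against glycerol and 3.10 ± 0.25 against 48 h, with adjusted p of 2.86e-16 and 2.12e-08 (limma).

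*cip2*, a glucuronoyl esterase gene, was at a lower level, with 198, 147, and 93.7 TPM at 8 h in WT and with 87.7, 119, and 101 TPM in Δ*nsd3*. At 48 h it was at 61.8, 44.4, and 63.2 TPM in WT and at 29.6, 29.8, and 20.2 TPM in Δ*nsd3*, again without overlap. Its log2 fold change at 8 h against 48 h in Δ*nsd3* was 1.92 ± 0.19 (SE), adjusted p 3.44e-07 (limma).

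*cel1a*, a family 1 β-glucosidase that splits cellobiose, was at 1393, 1332, and 974 TPM at 8 h in WT and at 1743, 1726, and 1873 TPM in Δ*nsd3*. Its 48 h levels were 457, 532, and 448 TPM in WT and 409, 376, and 334 TPM in Δ*nsd3*, so the fall between the time points was steeper in Δ*nsd3* by means. Against 48 h its log2 fold change in Δ*nsd3* was 2.26 ± 0.16 (SE), adjusted p 5.55e-09 (limma).

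*man5a*, a mannanase gene, stood lowest against WT at 8 h among these cell wall genes. It was at 1082, 713, and 502 TPM in WT and at 69.1, 327, and 334 TPM in Δ*nsd3*, where replicate 1 was far below the others. At 48 h it was at 319, 272, and 333 TPM in WT and at 104, 86.7, and 77.9 TPM in Δ*nsd3*. Its increase over glycerol in Δ*nsd3* was large (log2 fold change 7.24 ± 0.40 SE, adjusted p 6.73e-11, limma), but that over 48 h (1.13 ± 0.40, adjusted p 0.0380) was lost under several settings. With every library kept, its adjusted p was 0.125 with a pseudocount of 0.1, 0.120 with no filter, 0.0809 with median-of-ratios scaling, 0.0866 after quantile normalization, and 0.0546 with eBayes lacking the trend. Without 8 h replicate 2 or 3 it was 0.77 or 0.75, with adjusted p of 0.203 and 0.200, and without 48 h replicate 2 or 3 it was 1.11 or 1.04, with adjusted p of 0.0985 and 0.105. Over all single libraries left out the log2 fold change was 0.75 to 1.88, and the call was kept without the low 8 h replicate 1.

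The genes of the first steps of pentose use, *xyl1* (D-xylose reductase) and *xdh1* (xylitol dehydrogenase), were members of similar score. *xyl1* was at 559, 483, and 416 TPM at 8 h in WT and at 715, 399, and 479 TPM in Δ*nsd3*, and *xdh1* was at 133, 113, and 95.6 TPM in WT and at 189.7, 107, and 116 TPM in Δ*nsd3*. The strains overlapped for both genes at 8 h. Within Δ*nsd3* both were upregulated at 8 h against each other condition, with log2 fold changes against 48 h of 1.94 ± 0.19 (SE) for *xyl1* and 1.67 ± 0.22 for *xdh1* (adjusted p 3.51e-07 and 1.54e-05, limma).

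Of the sugar transporters that the study or the gene table pairs with an identifier, 3 were members, and further transporters may be among the members without a symbol. Lac1 (TRIREDRAFT_56684) was at 32.7, 21.1, and 12.7 TPM at 8 h in WT and at 33.8, 15.7, and 19.3 TPM in Δ*nsd3*, and at most 3.67 TPM in any other library. Tr44175 (TRIREDRAFT_44175), which carries cellobiose and sophorose, was at 143, 105, and 103 TPM at 8 h in WT and at 692, 293, and 406 TPM in Δ*nsd3*. Every Δ*nsd3* library of Tr44175 stood above every WT library in each of the 4 conditions, with log2 differences of 1.90 at 8 h, 2.18 at 48 h, 1.05 for glycerol, and 0.81 for glucose.

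*hxt1*, a hexose transporter gene, was at 309.7, 296, and 331 TPM at 8 h in WT and at 399, 270.3, and 339 TPM in Δ*nsd3*. On glucose it was at 1.33, 1.25, and 2.22 TPM in WT and at 19.5 ± 3.12 TPM (SD, n = 3) in Δ*nsd3*, with no overlap. Against 48 h in Δ*nsd3*, the log2 fold change was 2.66 ± 0.23 (SE) for Lac1, 2.10 ± 0.21 for Tr44175, and 1.03 ± 0.16 for *hxt1*, with adjusted p of 8.55e-08, 5.99e-07, and 9.66e-05 (limma). That of *hxt1* fell under the threshold of 1 without 48 h replicate 3 (0.94) or 8 h replicate 1 (0.90), or with limma array weights (0.82).

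Regulators were few among the members with a symbol. *xyr1*, the gene of the main activator of cellulase genes, was at 247, 246, and 206 TPM at 8 h in WT and at 297, 189.6, and 264 TPM in Δ*nsd3*, so the strains overlapped. At 48 h it was at 124, 60.1, and 149.9 TPM in WT and at 137, 88.9, and 82.6 TPM in Δ*nsd3*. It was upregulated at 8 h in Δ*nsd3* against glucose (log2 fold change 7.03 ± 0.20 SE, adjusted p 2.25e-15), glycerol (3.96 ± 0.20, adjusted p 2.78e-11), and 48 h (1.29 ± 0.20, adjusted p 8.93e-05, all limma).

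*blr2*, a blue-light regulator gene, was at 124, 144, and 151 TPM at 8 h in WT and at 115, 112, and 109.9 TPM in Δ*nsd3*. It was upregulated in Δ*nsd3* against glucose (log2 fold change 2.81 ± 0.15 SE) and against 48 h (1.18 ± 0.15, adjusted p 6.55e-06, limma), and its value against glycerol was 0.98 ± 0.15, or 1.06 and 1.05, past the threshold, without glycerol replicate 1 or 2. *ras2*, a small GTPase gene, was at 48.4, 35.6, and 30.6 TPM at 8 h in WT and at 31.8, 22.5, and 23.5 TPM in Δ*nsd3*, and was upregulated against glucose only (1.72 ± 0.20, adjusted p 4.69e-07). *rsr1* was likewise upregulated against glucose only, at a log2 fold change of 1.36 ± 0.14 (adjusted p 1.64e-07, limma), and its value against 48 h was 0.27 ± 0.14 (adjusted p 0.179). That against glucose was 0.97 after scaling by the median of ratios, under 1, and that against glycerol, 0.95 ± 0.14, was 1.03 without 8 h replicate 3 and 1.05 without glycerol replicate 2, past it.

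Metabolic members behaved differently from each other. *sod1*, a superoxide dismutase gene, was at 634, 426, and 371 TPM at 8 h in WT and at 68.4 to 85.5 TPM on glycerol and at 48 h. In Δ*nsd3* it was at 602, 462, and 691 TPM at 8 h, but at 154, 424, and 161 TPM on glycerol and at 249, 389, and 289 TPM at 48 h. The Δ*nsd3* levels on glycerol and at 48 h were above all WT libraries of those conditions, and the log2 fold change at 8 h against 48 h was 0.92 ± 0.28 (SE), under the threshold of 1 (adjusted p 0.0170, limma). It was 1.10 without 48 h replicate 2 and 1.08 without 8 h replicate 2, past the threshold.

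*fdh1* was at 373, 292, and 269 TPM at 8 h in WT and at 185, 144, and 168 TPM in Δ*nsd3*, with no overlap. It was upregulated at 8 h in Δ*nsd3* against all other conditions, with log2 fold changes of 1.29 ± 0.19 (SE) against glycerol and 1.23 ± 0.19 against 48 h (adjusted p 2.69e-05 and 5.72e-05, limma). *acu3*, whose *Neurospora crassa* namesake encodes isocitrate lyase of the glyoxylate cycle, was at 436, 390.2, and 366 TPM at 8 h in WT and at 581, 523, and 442 TPM in Δ*nsd3*. On glycerol it was at 207, 201, and 148 TPM in WT and at 388, 443, and 355 TPM in Δ*nsd3*, and its 8 h level in Δ*nsd3* differed from glycerol by a log2 fold change of 0.38 ± 0.19 (adjusted p 0.125).

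The most abundant member was *hfb3*, a hydrophobin gene whose product is a small surface-active protein of the fungal cell surface. In WT it was at 13113, 14506, and 18262 TPM at 8 h, at 7881, 6120.3, and 5301 TPM on glycerol, and at 7734, 5674, and 7374 TPM at 48 h. In Δ*nsd3* it was at 3663, 4863, and 4571 TPM at 8 h, at 2951, 1978, and 1563 TPM on glycerol, and at 5153, 5044, and 5031 TPM at 48 h. The strains did not overlap in any of these 3 conditions, and the peak in Δ*nsd3* by means was at 48 h. The log2 fold change at 8 h against 48 h in Δ*nsd3* was −0.23 ± 0.17 (SE), adjusted p 0.375, and that against glycerol was 1.05 ± 0.17, adjusted p 1.11e-04 (limma). The latter fell under 1 without 8 h replicate 2 (0.97) or glycerol replicate 3 (0.84), or with limma array weights (0.87).

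In 32 members the highest Δ*nsd3* mean was that of 48 h, among them TRIREDRAFT_82619, which was at most 0.105 TPM in any Δ*nsd3* library. In these the median Δ*nsd3* level was 29.3 TPM at 8 h and 44.2 TPM at 48 h, against WT medians of 89.9 TPM and 39.7 TPM. They are grouped here by their Δ*nsd3* levels, so these medians are a description.

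3 of them were downregulated at 8 h against 48 h. TRIREDRAFT_104181 was at 13.0, 13.7, and 14.8 TPM at 8 h in WT but at 1.16, 2.85, and 0.990 TPM in Δ*nsd3*, where 48 h gave 8.65, 7.57, and 6.45 TPM. TRIREDRAFT_81383 was at 289.6, 339, and 271 TPM at 8 h in WT and at 87.3, 88.4, and 72.5 TPM in Δ*nsd3*, where 48 h gave 204, 171, and 176 TPM. For both genes every Δ*nsd3* library of 48 h stood above every Δ*nsd3* library of 8 h, the opposite order to WT, and the log2 fold changes were −1.74 ± 0.22 (SE) and −1.14 ± 0.19 (adjusted p 8.43e-06 and 1.89e-04, limma). With a pseudocount of 5 the value of TRIREDRAFT_104181 was −0.92, within the threshold of 1.

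TRIREDRAFT_37525 was at 158, 165, and 125 TPM at 8 h in WT and at 29.9, 34.7, and 22.5 TPM in Δ*nsd3*, with 72.7, 53.6, and 55.4 TPM at 48 h. Its log2 fold change was −1.04 ± 0.23 (SE), adjusted p 1.83e-03 (limma), and was −0.91 without 48 h replicate 1 and −0.88 without 8 h replicate 3, within the threshold of 1, as it was with a pseudocount of 5 (−0.95) or limma array weights (−0.85).

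**Figure D4:**
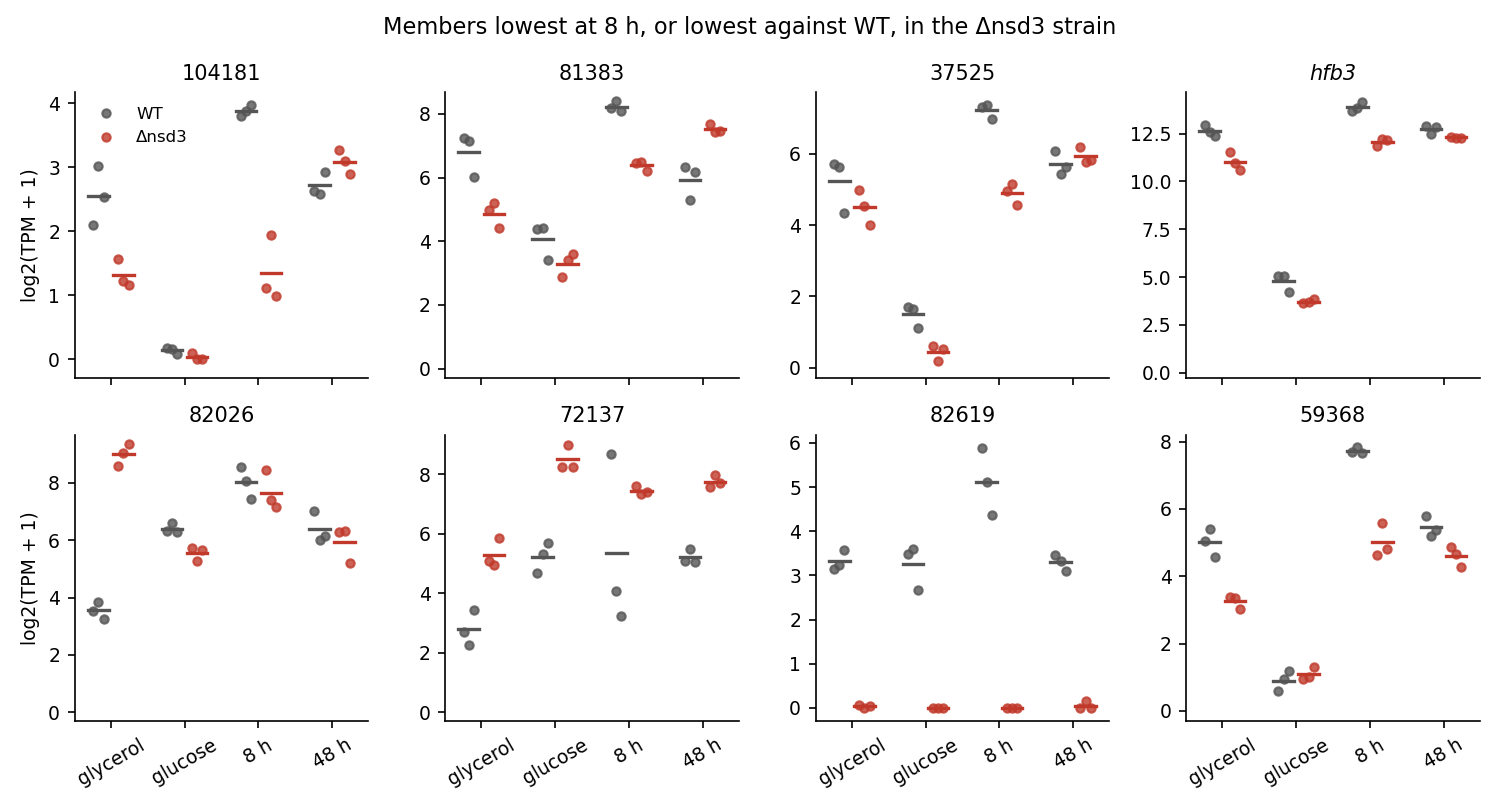
Level of 8 members, log2(TPM + 1) on the y axis, in each library of WT (grey) and Δ*nsd3* (red) in the 4 conditions; bars are means of 3 libraries on that scale, and numbers are TRIREDRAFT identifiers. The Δ*nsd3* libraries of TRIREDRAFT_104181, TRIREDRAFT_81383, TRIREDRAFT_37525, and *hfb3* are higher at 48 h than at 8 h, TRIREDRAFT_82619 is at or near 0 throughout, and 1 of 3 WT libraries carries the 8 h peak of TRIREDRAFT_72137.

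TRIREDRAFT_82026 kept its level on cellulose but was high on glycerol in Δ*nsd3*. On glycerol it was at 10.6, 13.4, and 8.57 TPM in WT and at 377, 527, and 655 TPM in Δ*nsd3*, a log2 difference of 5.44, the largest among members in any condition. At 8 h it was at 372, 266, and 172 TPM in WT and at 346, 165, and 140.4 TPM in Δ*nsd3*, with overlap. Within Δ*nsd3* it was downregulated at 8 h against glycerol (log2 fold change −1.33 ± 0.30 SE, adjusted p 2.02e-03) and upregulated against 48 h (1.72 ± 0.30, adjusted p 2.59e-04, limma).

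TRIREDRAFT_72137 entered the list through 1 library. Its WT libraries of 8 h were at 413, 15.97, and 8.41 TPM, and the last 2 were below all its WT libraries of glucose (24.6, 39.0, and 50.8 TPM) and of 48 h (32.9, 43.8, and 31.8 TPM). In Δ*nsd3* it was at 192, 159, and 166 TPM at 8 h and highest on glucose, at 303, 506, and 302 TPM. Its log2 fold change at 8 h against glucose was −1.06 ± 0.21 (SE), adjusted p 2.75e-04 (limma), and −0.81 without glucose replicate 2. In a fit of all 24 libraries its adjusted p was 0.237.

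Between strains the members were lower at 8 h in Δ*nsd3*. The median log2 difference, Δ*nsd3* minus WT, was −0.73 at 8 h, where the median over all genes tested was −0.15. It was 0.16 at 48 h (all genes, 0.03), −0.08 on glycerol (0.29), and −0.22 on glucose (−0.16). The 48 h value was −0.078 without WT 48 h replicate 2. The glycerol value was −0.37 with median-of-ratios scaling or quantile normalization, −0.20 without Δ*nsd3* replicate 2, and 0 without Δ*nsd3* replicate 3, and the glucose value was −0.34 with a pseudocount of 0.1 and −0.070 after quantile normalization. Because high WT levels at 8 h chose the members, a lower value in a second set of libraries is built into the comparison at 8 h, and no test is given.

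At 8 h, 56 members were at a log2 difference of −1 or less, where 8.13% of all genes were, and 12 were at 1 or more, where 9.18% were. All 3 Δ*nsd3* libraries lay below all 3 WT libraries at 8 h for 83 members and above them for 17. The same counts were not made over all genes, and the choice by WT levels at 8 h favours the lower side. They therefore describe the members only. The differences ranged from −5.12 to 2.79.

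The highest were those of TRIREDRAFT_62872 (2.79), TRIREDRAFT_72137 (2.10), TRIREDRAFT_58717 (1.93), Tr44175 (1.90), and TRIREDRAFT_61293 (1.81). For TRIREDRAFT_72137 the strains overlapped at 8 h, and its differences were 2.49 on glycerol, 3.26 on glucose, and 2.55 at 48 h. TRIREDRAFT_62872 was at 29.3, 26.4, and 21.9 TPM at 8 h in WT and at 223, 160.4, and 173 TPM in Δ*nsd3*, where it was listed at 0 on glucose in all libraries. It was also upregulated at 8 h in Δ*nsd3* against 48 h, by a log2 fold change of 2.88 ± 0.27 (SE), adjusted p 2.49e-07 (limma). TRIREDRAFT_61293 was at 19.4, 15.0, and 15.8 TPM at 8 h in WT and at 68.8, 58.7, and 56.5 TPM in Δ*nsd3*.

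The lowest was TRIREDRAFT_82619, at −5.12, a size that the pseudocount sets because the gene was listed at 0. It was at 58.3, 33.6, and 19.6 TPM at 8 h in WT and at 0 in all Δ*nsd3* libraries of 8 h, and at most 0.105 TPM in any other Δ*nsd3* library. Its peak could therefore not be compared within Δ*nsd3*.

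TRIREDRAFT_79726 (−2.74), TRIREDRAFT_59368 (−2.72), TRIREDRAFT_27992 (−2.63), and TRIREDRAFT_104181 (−2.54) followed. TRIREDRAFT_59368 was at 205, 228, and 200.3 TPM at 8 h in WT and at 23.7, 46.8, and 27.1 TPM in Δ*nsd3*, and TRIREDRAFT_27992 was at 74.4, 63.8, and 64.9 TPM in WT and at 10.8, 9.59, and 9.93 TPM in Δ*nsd3*. Neither was upregulated at 8 h in Δ*nsd3* against 48 h, with log2 fold changes of 0.40 ± 0.23 (SE) and 0.56 ± 0.20 (adjusted p 0.220 and 0.0424, limma), although both were upregulated against glucose (3.92 ± 0.23 and 2.63 ± 0.20). Against glycerol TRIREDRAFT_59368 was upregulated (1.75 ± 0.23, adjusted p 8.91e-06, limma) and TRIREDRAFT_27992 was not (0.53 ± 0.20, adjusted p 0.0443).

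The members also differed by their WT background level. In 15 members the WT mean was under 1 TPM on both glycerol and glucose, and this group was made after the values were seen. It holds TRIREDRAFT_76230, TRIREDRAFT_58717, TRIREDRAFT_54219, TRIREDRAFT_121127, Lac1, *cip2*, and *man5a* among others. In Δ*nsd3* all 15 were upregulated at 8 h against glycerol and against 48 h, with a median log2 fold change of 2.996 against 48 h, and the 8 h libraries of 14 stood above all other Δ*nsd3* libraries. The call of *man5a* against 48 h is the one described above as lost under several settings. Of the other 124 members, 70 were upregulated against glycerol and 34 against 48 h, with a median of 0.55 against 48 h. Over all genes tested, 8.87% were upregulated against glycerol and 4.29% against 48 h. The median log2 difference between strains at 8 h was 0.61 for the 15, 12 of which were above 0, and −0.82 for the 124, 27 of which were above 0. WT levels chose the members, made this grouping, and enter the strain difference, so these values are a description with no test. The share of all genes above 0 was not counted.

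A split by the second-highest WT condition gave smaller contrasts. The 105 members with 48 h as second-highest had a median log2 fold change in Δ*nsd3* at 8 h against 48 h of 0.68, and 40 were upregulated. For the 31 with glycerol as second-highest the median was 0.62, and 8 were upregulated, beside 4.29% of all genes. Of the 3 with glucose as second-highest, 1 was upregulated against 48 h. Against glycerol, 70 of the 105 (median 1.86) and 12 of the 31 (median 0.89) were upregulated, beside 8.87% of all genes. The median log2 differences between strains at 8 h were −0.63 for the 105 and −1.09 for the 31. These are again a description, because WT levels made the split.

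Some members lay beside each other in gene order, which the rule did not use. The gene table of the RefSeq v2.0 assembly names no scaffolds, so genes were taken as adjacent where they followed each other in its rows with rising starts and lay within 20000 bases, and a pair that spans 2 scaffolds would be counted wrongly. By this reading, 23 of the 139 members (16.5%) lay next to another member, in 10 pairs and 1 run of 3. Of 270 positions flanking a member, 24 held a member (8.89%), while members are 1.59% of all genes. A gene that flanks more than 1 member was counted each time. No test of this share was made.

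Besides TRIREDRAFT_76230 and TRIREDRAFT_58717, Lac1 lay next to TRIREDRAFT_56840, *cip2* next to TRIREDRAFT_69276, *hxt1* next to TRIREDRAFT_80340, and *xdh1* next to TRIREDRAFT_23146. The run of 3 held TRIREDRAFT_111778, *hfb3*, and TRIREDRAFT_69489. The Δ*nsd3* scores of this run were −0.43, −0.22, and 0.37, while the WT scores were 1.48, 1.14, and 1.29. TRIREDRAFT_111778 was at 27.1, 19.3, and 20.0 TPM at 8 h in WT and at 3.62, 3.79, and 2.54 TPM in Δ*nsd3*, and TRIREDRAFT_69489 was at 64.8, 70.3, and 68.6 TPM in WT and at 46.0, 40.1, and 36.9 TPM in Δ*nsd3*.

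Within pairs the members were not always alike. TRIREDRAFT_59368 and TRIREDRAFT_59482 had low Δ*nsd3* scores of 0.44 and 0.09, whereas TRIREDRAFT_61293 and TRIREDRAFT_3739 had scores of 3.06 and 2.33. *xdh1* had a Δ*nsd3* score of 1.69 and its neighbour TRIREDRAFT_23146 one of −0.07, the latter with 43.8, 35.4, and 22.8 TPM at 8 h in WT and 12.4, 6.64, and 6.35 TPM in Δ*nsd3*. Over all members beside another member, 14 of 23 were upregulated at 8 h in Δ*nsd3* against 48 h, compared with 35 of the other 116. Of all genes tested, 4.29% were. The difference between the 2 parts was not tested.

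**Figure D5:**
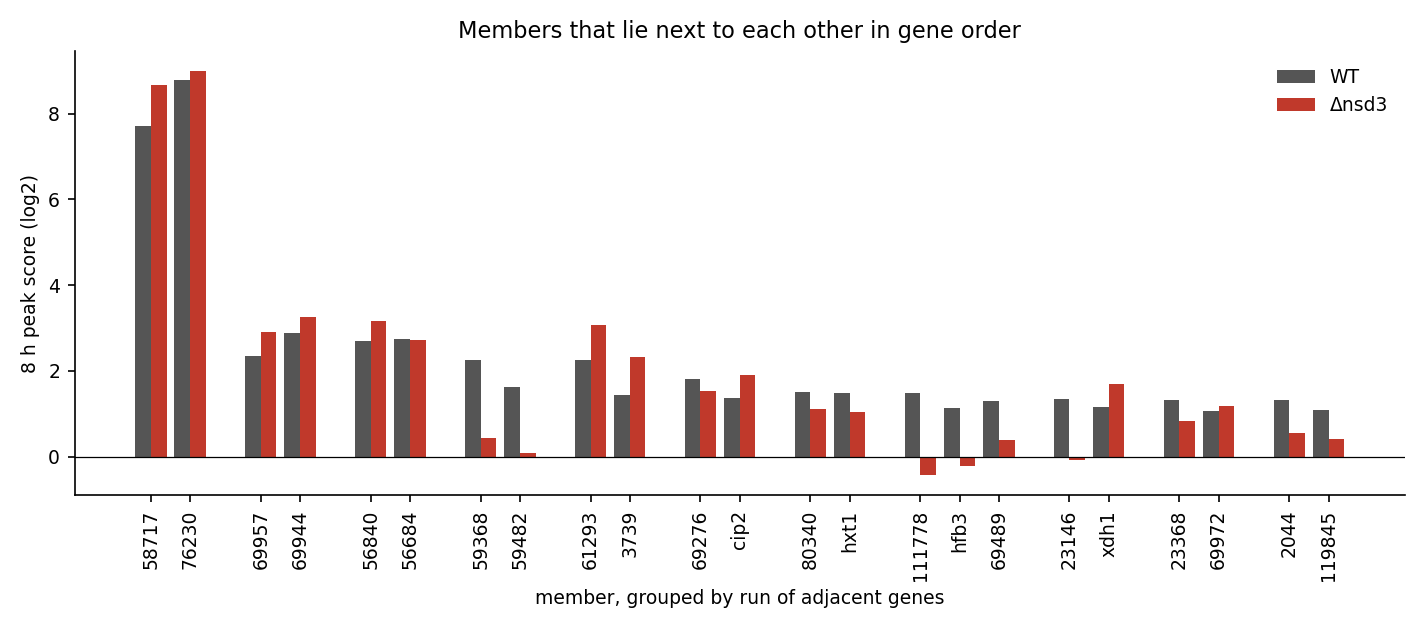
Peak score (y axis, log2 scale) in WT (grey) and Δ*nsd3* (red) of the 23 members that lie next to another member, grouped by run along the x axis. The pair with the highest scores is TRIREDRAFT_58717 and TRIREDRAFT_76230, and the run of 3 around *hfb3* has Δ*nsd3* scores of −0.43, −0.22, and 0.37.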

How the data were processed

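The authors trimmed reads with Trim Galore 0.6.7, mapped them with HISAT2 2.2.1, and counted them with featureCounts (DESeq2 was used for their comparisons). They deposited TPM values, already corrected for gene length and depth, for 8755 genes, which sum to 838257 to 886039 per library over the genes used here. A gene's level is thus relative to other transcripts. Depth was recovered from TPM steps and RefSeq lengths of 8750 genes, where 69.7% to 82.0% of low values came within 0.1 of whole reads (20.0% by chance), too few for a count test.

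In the present work the 12 Δ*nsd3* libraries were fitted with limma 3.58.1 on log2(TPM + 1) for the 7933 genes that reached 1 TPM in 3 or more of 24 libraries. All 139 members passed, also with the WT 8 h libraries left out of that filter. The filter still counted the other WT libraries. TRIREDRAFT_82619, at most 0.105 TPM in any Δ*nsd3* library, passed through them and stays in the counts of 139. Contrasts were two-sided, with eBayes trend and Benjamini-Hochberg adjustment over all genes tested, and fold changes understate low genes. The fit was tested on simulated data with the same spread for every gene and changes in well-expressed genes only. That run therefore does not cover low or variable genes. Strain differences are means of log2(TPM + 1) and received no test. The members and lists were chosen with earlier results of these data known. Genes named are the highest ranked, those with the extreme Δ*nsd3* scores or strain differences, those with a symbol or identifier in the study, those at the limit, and neighbours. Product classes and sequence features were not analysed here, because the gene table used holds symbols and positions alone. Alternatives were pseudocounts, filters, scalings, all 24 libraries, a replicate block, limma options, and single libraries left out.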

Additional observations from a re-analysis of the deposited data

Results flagged for a closer look

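For 14 members all WT libraries of 8 h stood above those of another condition while all Δ*nsd3* libraries of 8 h stood below them, and the difference between the strains was not tested. The WT order is fixed by the choice of the members, and the same count was not made over all genes. Against glycerol this was TRIREDRAFT_82026, with a log2 fold change of −1.33 in Δ*nsd3*. Against 48 h the Δ*nsd3* values were −1.74 for TRIREDRAFT_104181, −1.14 for TRIREDRAFT_81383, and −1.04 for TRIREDRAFT_37525, the 3 that were downregulated there. They were −0.96 for TRIREDRAFT_123713, −0.76 for TRIREDRAFT_73818, −0.73 for TRIREDRAFT_55990, −0.70 for TRIREDRAFT_108663, and −0.58 for TRIREDRAFT_22129. The remaining values were −0.57 for TRIREDRAFT_122422, −0.50 for TRIREDRAFT_124141, −0.49 for TRIREDRAFT_81149, −0.48 for TRIREDRAFT_78988, and −0.23 for *hfb3*, all under the threshold of 1.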

How the results depend on the processing

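Members upregulated at 8 h in Δ*nsd3* numbered 72 to 88 against glycerol, 108 to 123 against glucose, and 42 to 50 against 48 h over all alternatives that kept every library, and 79 to 89, 119 to 122, and 44 to 54 with single libraries left out. Members with all 8 h libraries on top were 81 with median-of-ratios scaling and 74 to 87 with a library left out. Members downregulated against 48 h were 1 with a pseudocount of 5 and 2 to 4 with libraries left out. Against glucose they were 0 in a fit of all 24 libraries and 0 to 1 with libraries left out. Of the 150 ranked genes, 126 to 144 stayed in the list under the other rankings and 127 to 149 with a WT library left out.

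The median strain difference at 48 h was −0.078 to 0.34 with libraries left out, and −0.078 came without WT replicate 2. On glycerol it was −0.37 with median-of-ratios scaling and −0.37 after quantile normalization, and −0.20 to 0 with libraries left out. On glucose it was −0.34 with a pseudocount of 0.1 and −0.070 after quantile normalization. At 8 h it was −0.82 to −0.68 with libraries left out. That scaling moved the median of all genes between strains from 0.29 to −0.01 on glycerol, from −0.16 to −0.00 on glucose, and from −0.15 to −0.01 at 8 h, and shifted the members with it; other causes were not tested.

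Same-numbered Δ*nsd3* libraries of 8 h and 48 h deviated together for replicates 1 and 3 (correlations of 0.34 and 0.27) but not for replicate 2 (−0.12). With glycerol and glucose the correlations were −0.27 to 0.03, so not every pair correlated, and the samples were taken to share only a number. The replicate block left 85, 120, and 49 upregulated members. For the named genes, 2310 values of 105 fold changes were recomputed. Of these, 2271 kept their direction and side of the threshold, 26 dropped under it, 9 rose past it, and 4 turned in direction. The last were all of TRIREDRAFT_104181 against glycerol, a value of 0.03 that was −0.29 after quantile normalization and −0.27, −0.02, and −0.05 without 8 h replicate 2, glycerol replicate 2, and glycerol replicate 3 (−0.27 to 0.21 over all libraries left out). Depth limits the lowest levels, and the reads behind a value under 1 TPM differed between libraries. For TRIREDRAFT_58717, 0.159 TPM in WT glycerol replicate 2 was an estimated 5.98 reads. In the deeper Δ*nsd3* glycerol replicate 3, 0.852 TPM was an estimated 249 reads.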
